A study of Mus musculus with 6 samples.

Results

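The genes examined here encode inhibitors of MAP kinase signalling, most of them feedback brakes on ERK. They are the phosphatases Dusp1, Dusp4, Dusp5, Dusp6, Dusp10 and Dusp14 and the adaptor-type inhibitors Spry1, Spry2, Spry4 and Spred1. They were taken by gene symbol, as 10 of the 20327 genes in the tag tables, and all 10 had a row. The study asked how fibroblasts that make IL-11 in the inflamed mouse colon differ from neighbouring stromal cells that do not. Both groups came from C57BL/6 mice carrying Il11-Egfp, a bacterial artificial chromosome transgene in which regulatory sequence of Il11 drives EGFP, kept as a single transgenic line. The mice, males aged 9 to 15 weeks, drank 1.5% dextran sulfate sodium (DSS), which injures the colonic epithelium and causes colitis, for 5 days and regular water after that. On day 7 the colon was digested, and DAPI-negative cells lacking Ter119, CD45, CD31 and EpCAM were sorted by EGFP into IL-11⁺ (EGFP⁺) cells and into IL-11⁻ (EGFP⁻) cells, 3 libraries each from 3 mice. DSS treatment and the reporter were thus common to both groups, and per the methods the EGFP⁺ sort was not completely pure.

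ERK is the last kinase of the RAS-RAF-MEK-ERK cascade, which growth factor receptors switch on and which drives transcription of early response genes. Among these early response genes are inhibitors of the cascade itself. Dual-specificity phosphatases (DUSPs) remove the activating phosphates from MAP kinases, while Sprouty and Spred proteins act further upstream, between the receptor and RAF. Because ERK induces many of these genes, their transcripts are widely read as a record of recent ERK activity, although Dusp1 also answers to stress, glucocorticoid and the p38 pathway, and Dusp10 acts mainly on p38 and JNK.

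RNA was measured by 5′Tag-seq, in which reads from the 5′ part of polyadenylated transcripts are counted as tags per gene. The EGFP⁻ libraries held 1057170, 1078179 and 1169817 tags and the EGFP⁺ libraries 1046538, 1022851 and 1049048, so depth was nearly even. Levels are given as CPM, the tag count per 1000000 tags in tested genes after scaling with TMM factors. Il11 itself stood at 26.7, 48.1 and 73.1 CPM in EGFP⁻ cells and at 1440, 743 and 2530 in EGFP⁺ cells, a log2 difference of 4.98 (SE 0.393, edgeR adjusted p = 1.01e-07). All 10 fibroblast markers (Col1a1, Col1a2, Col3a1, Dcn, Lum, Pdgfra, Dpt, Pdpn, Thy1 and Vim) passed the count filter. Of the epithelial, immune and mesothelial markers none reached the filter. Of the endothelial markers only Tek did, with 17, 7 and 5 tags in EGFP⁺ libraries. Pecam1 and Lyve1 had no tag in EGFP⁺ cells, but they were also near 0 in EGFP⁻ libraries (0, 1 and 0 tags, and 3, 0 and 2 tags). Transcripts of smooth muscle, pericytes, glia and interstitial cells of Cajal were found in both groups, at higher summed levels in EGFP⁻ cells. They are described further on beside Dusp1.

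No gene of the DUSP, Sprouty and Spred group differed by more than 2-fold between IL-11⁺ and IL-11⁻ cells at an adjusted p below 0.05. Dusp1 transcripts were at a lower level in all 3 EGFP⁺ libraries than in any EGFP⁻ library, and Spry1, Spry4 and Spred1 at a higher one, while Dusp6 and Spry2 lay at nearly the same mean in both groups. In numbers, 8 of the 10 genes had at least 10 tags in at least 3 libraries and were tested, and 0 of these 8 were called when edgeR quasi-likelihood p-values were adjusted by Benjamini-Hochberg over all 9334 tested genes. The same rule called 9.81% of all tested genes, 3.44% as higher and 6.37% as lower in EGFP⁺ cells. DESeq2 also called 0 of the 8. At an unadjusted p below 0.05, edgeR marked 3 of the 8 (Spry1 and Spred1 up, Dusp1 down), beside 26.7% of all tested genes. With adjusted p alone and no fold requirement the count stayed at 0 of 8, beside 15.5% of all tested genes. It changed when the replicate number, taken to mark the mouse shared by 2 libraries, was a block, an alternative chosen after seeing the data. Then 1 member was higher (Spred1) and 1 lower (Dusp1), beside 20.6% of all tested genes. EGFP⁺ and EGFP⁻ libraries were fully apart, with EGFP⁺ above, for 3 of the 8 (background 14.5%) and, with EGFP⁺ below, for 1 of the 8 (background 16.7%). The median log2 difference was 0.19 over the 8 tested members and −0.01 over all tested genes. It depended on the filter: with at least 30 tags, which left out Spry1, it was −0.01 over the members and 0 over all tested genes. These are sorted populations, so fewer cells of a type that holds a transcript and less of that RNA per cell cannot be told apart.

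The phosphatases were described by where they act. Dusp1, Dusp4 and Dusp5 encode inducible phosphatases of the nucleus. Dusp1 (MKP-1; chromosome 17, 26505591 to 26508472, minus strand) dephosphorylates p38 and JNK as well as ERK, and its RNA is made within minutes of a stimulus. Its raw tags were 889, 917 and 986 in EGFP⁻ replicates 1 to 3 and 577, 671 and 622 in EGFP⁺ replicates 1 to 3. After scaling these were 849, 864 and 810 CPM in EGFP⁻ cells and 612, 681 and 593 in EGFP⁺ cells. Every EGFP⁺ library thus lay below every EGFP⁻ library, with a gap between the groups that exceeded the range within either. The means were 841 ± 28 and 629 ± 46.5 CPM (SD, n = 3 each). The log2 difference was −0.42 (SE 0.158, 95% interval −0.75 to −0.09), a 1.34-fold lower level in EGFP⁺ cells, with an edgeR adjusted p = 0.085. The replicate numbers are taken, here and below, to mark shared mice, which the labels do not state. On that reading the log2 difference within the mice was −0.47, −0.34 and −0.45, the same sign in 3 of 3. With the mouse as a block, the adjusted p of edgeR was 0.0193, while over all alternatives it ran from 0.0193 to 0.243. DESeq2 gave an adjusted p = 0.0934 for Dusp1. The edgeR adjusted p of Dusp1 was also below 0.05 when library size alone set the scale (0.0318) and when the filter was raised to 30 tags (0.0458), 3 of 13 alternatives in all. The direction held under each of the 13 alternatives and the size never reached 2-fold.

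Dusp4 (MKP-2), a nuclear phosphatase of ERK and JNK, was near the detection limit. It gave 6, 5 and 3 tags in EGFP⁻ libraries and 7, 2 and 3 in EGFP⁺ libraries. The groups overlapped fully, the count filter left the gene out of the test, and a difference was not detectable at this depth. When no filter was applied, the log2 difference of Dusp4 was −0.02 (edgeR adjusted p = 0.986).

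Dusp5 (chromosome 19, 53529145 to 53541809, plus strand) encodes a nuclear phosphatase that acts on ERK alone among the MAP kinases. Its tags were 4, 2 and 9 in EGFP⁻ libraries and 8, 9 and 16 in EGFP⁺ libraries. Scaled to depth, the EGFP⁻ libraries stood at 3.82, 1.88 and 7.39 CPM and the EGFP⁺ libraries at 8.48, 9.14 and 15.3. After scaling, the highest EGFP⁻ library, replicate 3, lay just below the lowest EGFP⁺ library, replicate 1. In raw tags their order was the reverse, at 9 against 8, so the groups were apart only after scaling. Within the mice the log2 difference was 1.15, 2.28 and 1.05. Only 1 library reached 10 tags, so Dusp5 was not tested in the main comparison. When no filter was applied, its log2 difference was 1.32 with an edgeR adjusted p = 0.113.

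Dusp6 (MKP-3; chromosome 10, 99263231 to 99267489, plus strand) is the cytoplasmic phosphatase that binds and inactivates ERK, and among these genes it is the one most often used as a readout of ERK output. It gave 64.9, 56.5 and 58.3 CPM in EGFP⁻ cells. In EGFP⁺ cells it gave 63.6, 57.9 and 56.3. The 6 libraries were interleaved, with replicate 1 the highest in both groups. The log2 difference was −0.02 (SE 0.192, 95% interval −0.42 to 0.39; edgeR adjusted p = 0.97), and within the mice it was −0.03, 0.03 and −0.05. That interval lies within 1.5-fold in both directions. A p that misses the threshold does not show that the levels were equal, but a difference of 1.5-fold or more lay outside the interval.

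Dusp10 and Dusp14 are less tied to ERK. Dusp10 (MKP-5; chromosome 1, 184034381 to 184075636, plus strand) prefers p38 and JNK as substrates. Its levels were 32.5, 49 and 21.3 CPM in EGFP⁻ cells and 44.5, 57.9 and 45.8 in EGFP⁺ cells. EGFP⁻ replicate 2 fell inside the EGFP⁺ range, so the groups overlapped, although the EGFP⁺ library was the higher of its pair in 3 of 3 mice (0.46, 0.24 and 1.10 on the log2 scale). The estimated log2 difference was 0.54 (SE 0.273, 95% interval −0.04 to 1.11, edgeR adjusted p = 0.221). Single EGFP⁻ libraries set its size: without replicate 2 it was 0.89 and without replicate 3 it was 0.28.

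Dusp14 (MKP-6; chromosome 11, 84048033 to 84069256, minus strand) encodes a small phosphatase without the MAP kinase binding domain of the others. EGFP⁻ libraries held 39.1, 32 and 30.4 CPM and EGFP⁺ libraries 19.1, 18.3 and 40.1. EGFP⁺ replicates 1 and 2 were the lowest of all 6 libraries and EGFP⁺ replicate 3 was the highest, so the spread within the EGFP⁺ group (25.8 ± 12.3, SD, n = 3) was wider than the distance between the means. The log2 difference of −0.37 (SE 0.304, 95% interval −1.01 to 0.26, edgeR adjusted p = 0.482) became −0.85 without EGFP⁺ replicate 3 (adjusted p = 0.083), but −0.20 and −0.17 without EGFP⁺ replicates 1 and 2 (adjusted p = 0.776 and 0.818). Dusp14 was the only one of the 10 genes to share transcript sequence with another annotated gene: 1.32% of the 50-base windows in its coding transcripts also occurred in Gm18555. For the other 9 genes no such window was shared, and no second gene of the tag tables overlapped the 8 members whose positions are given.

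**Figure D1:**
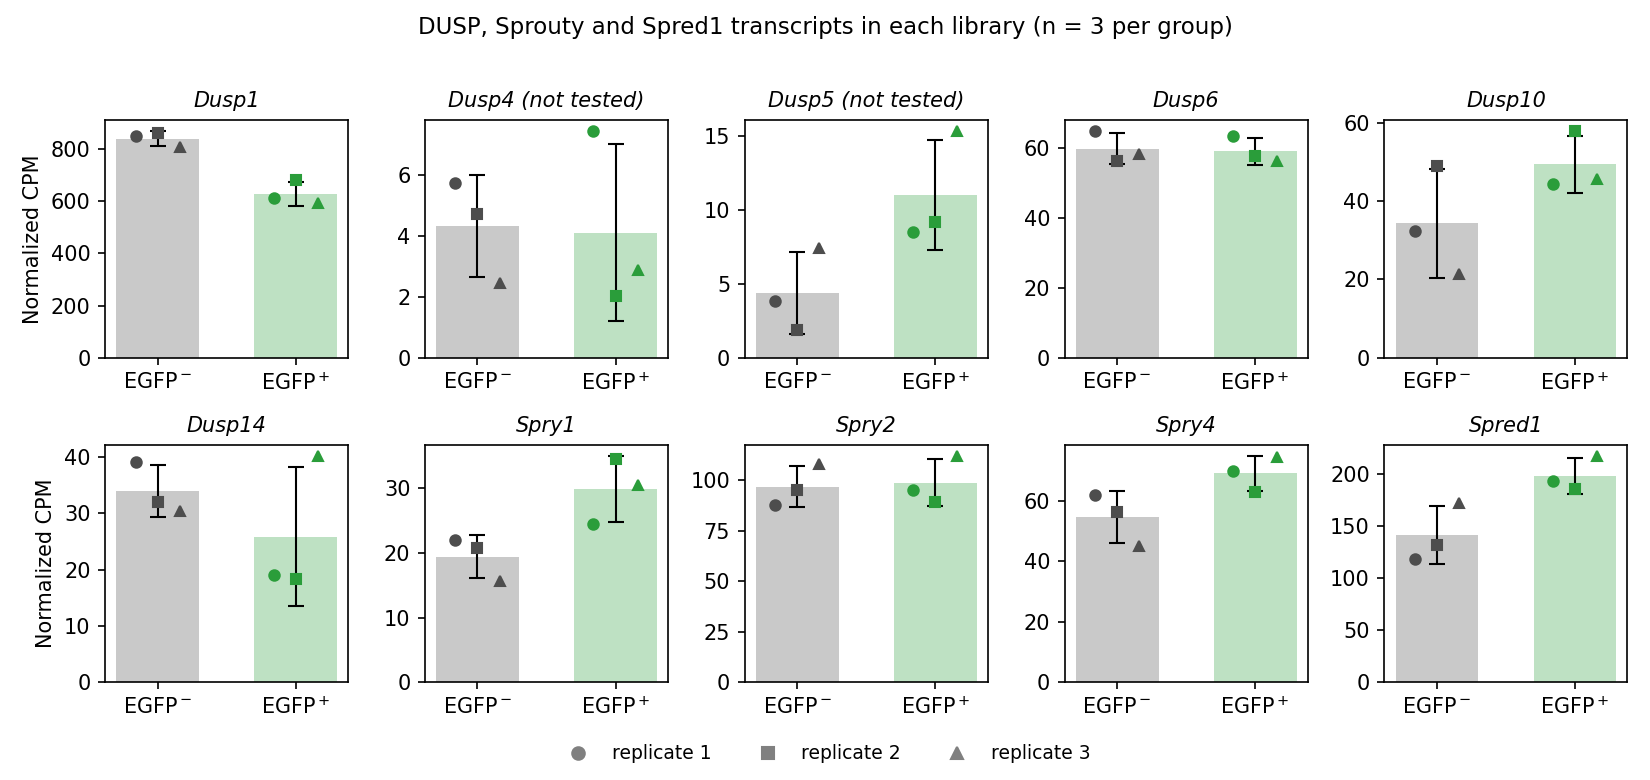
Normalized CPM (y axis, linear from 0, scaled separately per gene) in EGFP⁻ and EGFP⁺ libraries; symbols are replicates 1 to 3, bars are means and error bars are SD (n = 3). The EGFP⁺ libraries of Dusp1 lie between 593 and 681, below all EGFP⁻ libraries at 810 to 864, while those of Spred1 lie between 185 and 217, above all EGFP⁻ libraries at 118 to 172.

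Sprouty proteins are membrane-associated inhibitors that are induced by growth factors and interrupt the signal between the receptor and RAS or RAF. Spry1 (chromosome 3, 37639947 to 37644599, plus strand) was read from 23, 22 and 19 tags in EGFP⁻ libraries and 23, 34 and 32 tags in EGFP⁺ libraries. Scaled to depth these were 22, 20.7 and 15.6 in EGFP⁻ cells and 24.4, 34.5 and 30.5 in EGFP⁺ cells, in CPM. The groups did not overlap after scaling, but EGFP⁺ replicate 1 stood barely above EGFP⁻ replicate 1, with the same raw count. The log2 difference was 0.62 (SE 0.285, 95% interval 0.03 to 1.22, edgeR adjusted p = 0.166) and it was 0.15, 0.74 and 0.97 within the mice. Its interval reached past 2-fold, so the size of the Spry1 difference is poorly fixed by these few tags.

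Spry2 (chromosome 14, 105891947 to 105896819, minus strand), the most studied Sprouty gene in receptor signalling, differed little. EGFP⁻ cells gave 87.8, 95.2 and 108 CPM. EGFP⁺ cells gave 95.4, 89.3 and 112. The ranges overlapped almost fully, and in both groups replicate 3 was the highest. The log2 difference was 0.03 (SE 0.175, 95% interval −0.34 to 0.39, edgeR adjusted p = 0.946), and it was 0.12, −0.09 and 0.05 within the mice. As for Dusp6, the interval lay within 1.5-fold.

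Spry4, a Sprouty protein that also binds the actin regulator TESK1, gave 62.1, 56.5 and 45.2 CPM in EGFP⁻ cells and 70, 62.9 and 74.4 in EGFP⁺ cells. The groups were separate, but only by the small step from EGFP⁻ replicate 1 to EGFP⁺ replicate 2. The log2 difference was 0.35 (SE 0.199, 95% interval −0.07 to 0.76, edgeR adjusted p = 0.289), positive in 3 of 3 mice (0.17, 0.16 and 0.72). Its size rested in part on EGFP⁻ replicate 3, without which it was 0.22 (edgeR adjusted p = 0.575).

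Spred1 (chromosome 2, 117121071 to 117182279, plus strand) brings neurofibromin, the RAS GTPase-activating protein encoded by Nf1, to the membrane and so shortens the active state of RAS. Its raw tags were 124, 140 and 209 in EGFP⁻ libraries and 182, 182 and 228 in EGFP⁺ libraries. Scaled, EGFP⁻ cells gave 118, 132 and 172 CPM and EGFP⁺ cells 193, 185 and 217. All 3 EGFP⁺ libraries exceeded all 3 EGFP⁻ libraries, and replicate 3 was the highest of each group. The means were 141 ± 27.7 and 198 ± 17 CPM (SD, n = 3 each). The log2 difference was 0.49 (SE 0.176, 95% interval 0.12 to 0.86), a 1.41-fold higher level in EGFP⁺ cells, with an edgeR adjusted p = 0.0673. Within the mice it was 0.70, 0.49 and 0.34. With the mouse as a block, the edgeR adjusted p was 0.0129, within a range of 0.0129 to 0.241 over all alternatives, and with no filter it was 0.0496. DESeq2 gave an adjusted p = 0.123 for Spred1. Without EGFP⁻ replicate 3 the log2 difference of Spred1 was 0.66 (adjusted p = 0.0187, the third of the 13 alternatives below 0.05), and without EGFP⁻ replicate 1 it was 0.38. Nf1, the partner of Spred1, had a log2 difference of −0.14 (SE 0.195, edgeR adjusted p = 0.721).

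Spred1 and Dusp1, neither of them called, thus had estimates of opposite sign and similar size, both under 2-fold. They were the 2 of the 8 members with an adjusted p below 0.05 when the mouse was a block and no fold was required, a rule that 20.6% of all tested genes met. The intervals of 5 of the 8 tested members (Dusp1, Dusp6, Spry2, Spry4 and Spred1) lay within 2-fold in both directions, beside 55.5% of all tested genes. The members were measured somewhat more precisely than the typical gene, with a median SE of the log2 difference of 0.195 against 0.276. Their median absolute log2 difference was 0.40, against 0.32 over all tested genes.

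**Figure D2:**
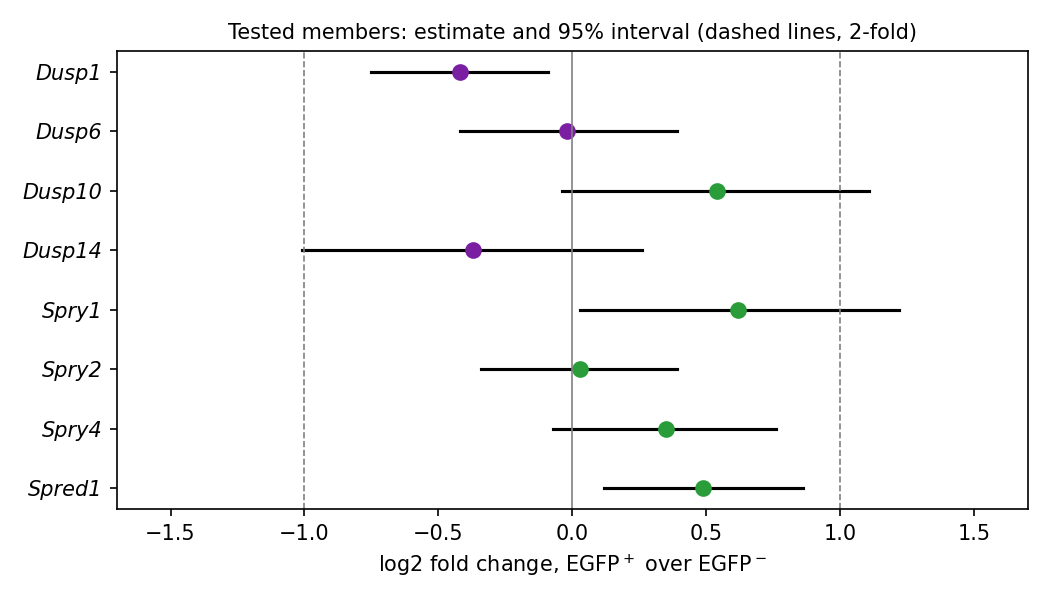
Log2 fold change of EGFP⁺ over EGFP⁻ cells (x axis) for the 8 tested members, as edgeR estimate (point, green above 0 and purple below) with 95% interval (line); dashed lines mark 2-fold. The interval lies below 0 for Dusp1 (−0.75 to −0.09) and above 0 for Spry1 (0.03 to 1.22) and Spred1 (0.12 to 0.86), and no interval lies wholly beyond 2-fold.

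The relatives of these genes gave a like picture. Of the 5 other MAP kinase phosphatase genes, Dusp8 and Dusp16 were tested and 0 were called, with log2 differences of 0.19 and 0.70 (edgeR adjusted p = 0.761 and 0.121); over the alternatives Dusp8 ran from −0.10 to 0.46, so its sign was not stable, and Dusp16 from 0.55 to 0.94. Of 13 atypical dual-specificity phosphatases 6 were tested and 0 called, with a median of 0.32 (−0.07 with at least 30 tags); the most abundant were Dusp11 (0.35) and Dusp3 (−0.42, or −0.55 to −0.24 over the alternatives). Spred2 and Spred3 stood at 0.30 and 0.18 on the same scale, neither called (edgeR adjusted p = 0.373 and 0.813), with ranges of 0.19 to 0.41 and −0.05 to 0.39 over the alternatives. Spry3 did not reach the count filter and was not tested, with 0, 3 and 0 tags in EGFP⁻ libraries and 5, 3 and 8 in EGFP⁺ libraries. At an unadjusted p below 0.05, edgeR marked 1 gene over these lists, Dusp16, and DESeq2 called 0.

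Of 21 tested genes of the RAS-ERK cascade that the members restrain, edgeR and DESeq2 called 0 (3 at an unadjusted p below 0.05 by edgeR), and the median log2 difference was 0.03 (−0.06 to 0.10 over left-out libraries), with Rps6ka3 at 0.11 and Ptpn11 at 0.08, both of which changed sign in some alternatives (lowest −0.06 and −0.01). For the JNK and p38 cascades, whose last kinases Dusp1 and Dusp10 dephosphorylate, 0 of 11 tested genes were called and the median was 0.06 (−0.07 to 0.19 over left-out libraries), with Mapkapk2 at 0.41 (0.23 to 0.49 over the alternatives) and Mapk9 at 0.02 (−0.07 to 0.11), 3 had an unadjusted p below 0.05, and DESeq2 called 0. Of 9 tested receptor tyrosine kinases only Kit was called (lower, −4.34), and Pdgfra and Ddr2 stood at 0.22 (0.13 to 0.32) and −0.01 (−0.10 to 0.15). Of 13 tested other inhibitors of RAS and receptors, the ubiquitin ligase gene Cbl was called higher at 1.08 (edgeR adjusted p = 0.0015) and 0 were called lower, by DESeq2 also 1 and 0, while 1 was higher and 5 were lower at an unadjusted p below 0.05, with Errfi1 at −0.29 (−0.38 to −0.18) and Pebp1 at 0.06 (−0.06 to 0.25) not called. The median of these 13 was −0.31 (−0.46 to −0.15 over left-out libraries). The EGFP⁺ libraries lay wholly below the EGFP⁻ libraries for 6 of them (background 16.7%) and wholly above for 1 (background 14.5%). The call of Cbl rested on the fold threshold: it was lost at 0.92 without EGFP⁻ replicate 1, at 0.97 without EGFP⁺ replicate 2 and, at 1 after rounding, with scaling by library size only.

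The known transcriptional targets of ERK on the list used here were split in direction. Early response genes such as Fos, Junb and Zfp36 were counted in the immediate early list below, whose median log2 difference was −0.78. The split thus covers only the listed targets. Of the 9 tested targets, 3 were called higher, beside 3.44% of all tested genes: Ier3 (1.52, edgeR adjusted p = 1.92e-05), Plaur (1.13) and Phlda1 (1). A further 2 were called lower, Etv1 (−1.12) and Ccnd1 (−1.92), beside 6.37% of all tested genes. Egr1 (−0.54) and Maff (−0.52) were not called, and the median of the 9 was 0.06. That median had no stable sign, being −0.27 without EGFP⁻ replicate 2 and 0.34 without EGFP⁻ replicate 3, −0.17 with no filter and 0.27 with at least 30 tags, and −0.02 with scaling by library size only. Ier3 kept its call under each alternative, whereas the others each lost it when 1 library was left out: Plaur at 0.99 without EGFP⁺ replicate 3, Etv1 at −0.91 without EGFP⁻ replicate 1, Ccnd1 at −1.6 (edgeR adjusted p = 0.0535) without EGFP⁻ replicate 2. Phlda1, on the 2-fold line, lost it in 8 of 13 alternatives, among them the block (0.99), library size only (0.92), iterative TMM (1) and at least 30 tags (0.96), and at 0.96, 0.98, 0.89 and 0.98 without EGFP⁻ replicates 1 and 3 and EGFP⁺ replicates 1 and 3.

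The lower level of Dusp1 in EGFP⁺ cells went together with lower levels in a list of immediate early and heat shock or stress genes, which are also induced while tissue is digested. Of the 19 genes on it, Dusp1 apart, 4 were called lower and 0 higher by edgeR and DESeq2 alike. Among all tested genes edgeR called 6.37% lower. At an unadjusted p below 0.05 edgeR marked 13 as lower and 0 as higher, beside 26.7% of all tested genes in either direction. The EGFP⁺ libraries lay below the EGFP⁻ libraries without overlap for 13 of the 19 (background 16.7%). The median log2 difference of the whole list was −0.78 (−0.89 to −0.61 over left-out libraries), against −0.42 for Dusp1. Called were Atf3 (−2.19), Btg2 (−1.25), Zfp36 (−1.17) and Junb (−1.01), and not called were Fos (−0.95) and Jun (−0.22, or −0.42 to −0.10 over the alternatives), the most abundant. Fos and Junb lay at the fold threshold, so that Fos was called with library size only (−1.03) and without EGFP⁻ replicate 3 (−1.05) or EGFP⁺ replicate 2 (−1.02), and Junb was not with no filter (−0.97) and without EGFP⁻ replicate 2 (−0.94) or EGFP⁺ replicates 1 (−0.99) or 3 (−1). Summed, the 19 genes stood at 31000, 32800 and 25900 CPM in EGFP⁻ cells and at 17700, 19600 and 17200 in EGFP⁺ cells, with Fos the most abundant. The part of digestion in the Dusp1 difference was not tested.

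Other cell types also moved with the groups in which Dusp1 was high. All 7 smooth muscle markers were called lower in EGFP⁺ cells, with Myh11 the most abundant (−4.55), then among the smallest p-values Myl9 (−4.27), Des (−3.59) and Tagln (−3.62), and their sum was 2570, 3210 and 4020 CPM in EGFP⁻ cells and 96.4, 155 and 335 in EGFP⁺ cells. Of 6 pericyte markers 3 were called lower, Rgs5 (−3.11), Cspg4 (−2.32) and Notch3 (−3.94). Abcc9 (0.66, edgeR adjusted p = 0.0167) and Kcnj8 (0.71, edgeR adjusted p = 0.0394) were higher, but under 2-fold and so not called. At an unadjusted p below 0.05 edgeR marked 2 as higher and 4 as lower. The list's sum was 2630, 2230 and 2020 against 1070, 894 and 793 CPM. Its most abundant gene was Rgs5, with means of 1650 CPM in EGFP⁻ cells and 190 in EGFP⁺ cells. The glial marker Gfap was called lower (−4.76), and Sox10 and S100b had 0 tags in EGFP⁺ cells. For interstitial cells of Cajal, Ano1 (−4.59) and Kit were both called lower, and their sum was 205, 120 and 218 against 1.06, 0 and 21, nearly all of the latter from EGFP⁺ replicate 3 (15 tags of Ano1 and 7 of Kit); both calls held in all 13 alternatives, with values from −7.69 to −4.02 for Ano1 and from −8.71 to −3.78 for Kit. Tek, the only endothelial marker tested, was called lower (−1.59), a call that was lost at −1.40 without EGFP⁺ replicate 2 (edgeR adjusted p = 0.0529), and the endothelial sum was 36.3, 25.4 and 37 against 18, 8.12 and 6.68. Among fibroblast markers, Pdpn (1.06) and Col3a1 (1.04) were called higher of 10 and 0 lower, by DESeq2 also 2 and 0, with 5 higher and 2 lower at an unadjusted p below 0.05, a sum of 24800, 25000 and 27400 CPM in EGFP⁻ cells against 43400, 35500 and 31900 in EGFP⁺ cells, and with Dcn (0.67, or 0.39 to 0.84 over the alternatives) and Col1a2 (0.42) not called; both calls were lost without EGFP⁻ replicate 1 (0.96 and 0.85) and with library size only (0.97 and 0.96), and that of Pdpn also without EGFP⁺ replicate 1 (0.96). The 2 fibroblast markers lower at an unadjusted p below 0.05 by edgeR were Dpt (−0.96) and Lum (−0.64), neither called. The part of these other cells in the levels of Dusp1, Spry1, Spry4 and Spred1 was not tested. Nor was it tested for genes of the other lists, such as the ERK targets Etv1 and Ccnd1. The members together gave 1290, 1310 and 1270 CPM in EGFP⁻ cells and 1140, 1200 and 1190 in EGFP⁺ cells, most of it from Dusp1.

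The stretches upstream of the transcription start were read for the 8 members held in RefSeq's promoter table (GRCm38.p6): all but Dusp4 and Spry4. Each window was the 250 bases before the start, searched on both strands for the CRE (TGACGTCA, bound by CREB and ATF proteins), the AP-1 site (TGANTCA), an ETS site (CCGGAAG) and the CArG box bound by serum response factor. Some ETS factors, partners of serum response factor, are nuclear targets of ERK, and AP-1 includes the Fos protein that ERK stabilizes. A CRE occurred in 1 of the 8 windows, that of Dusp1, and in 1.55% of 32851 promoters. CArG boxes occurred in 1 of the 8, that of Dusp5, and in 1.47% of all promoters. Neither the AP-1 site (6.75% of all promoters) nor the ETS site (6.91%) occurred in any of the 8, which says only that these letters were not in these windows. The matches are shown with 25 bases on each side, the motif in capitals, because they were the only matches in the 8 windows. That of Dusp1 lies at chr17:26508583-26508640 on the minus strand, and that of Dusp5, with a pair of adjoining CArG boxes, at chr19:53529038-53529107 on the plus strand. Both lie outside the annotated exons of these genes.
Dusp1: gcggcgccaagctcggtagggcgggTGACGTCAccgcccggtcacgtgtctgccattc
Dusp5: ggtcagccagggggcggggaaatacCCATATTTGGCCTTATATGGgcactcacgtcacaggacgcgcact
A match is a description of the sequence, and binding was not measured in these cells.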

How the data were processed

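Per the labels and the study's methods, the authors trimmed reads with Cutadapt 1.18, aligned them with Bowtie2 2.2.5, in a single orientation, to mm10 RNA sequences of RefSeq, and deposited raw tag counts per gene symbol; molecular identifiers and the treatment of reads mapping to several genes are not given in the sources used here. Groups and replicate numbers came from the sample titles. From the deposited counts, the 9334 of 20327 genes that reached 10 tags in 3 or more of the 6 libraries were scaled with TMM and tested with edgeR 4.0.16 (quasi-likelihood, R 4.3.3, EGFP⁺ against EGFP⁻ without a block). Genes were called at Benjamini-Hochberg adjusted p below 0.05 and a fold change over 2, and intervals are 95% and cover a single gene each. DESeq2 1.42.0 and other scalings, filters and left-out libraries were the alternatives. The procedure was tested on simulated data with 3-fold changes, of which it recovered 170 of 186 with 2 false calls. Smaller differences, such as those estimated for the members, were not simulated. Replicate numbers were taken to pair the samples by mouse, which no label states. The study used 3 mice per its methods. Libraries of 1 number deviated together from their group means over 5063 genes (r = 0.23, 0.185 and 0.264). Libraries of different numbers were not compared in this way, so the values within mice and with the mouse as a block rest on this reading. No 2 libraries were duplicates: the closest pair shared identical counts for 4.48% of tested genes.

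Named are the 10 members; from each other list the called genes (the 4 with the smallest p where there are more than 5) and the 2 with the highest mean that were not called; and Il11. Dpt, Lum and Spry3 are named as well, to complete what is said of their lists. No member was called, so no genes of like pattern are named. The members and lists were chosen with earlier results of these data known. Gene positions and promoters are from RefSeq (GRCm38.p6, the build of mm10), exons and transcripts from GENCODE (GRCm38). The result for a marker gene on a context list is not reported here.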

Additional observations from a re-analysis of the deposited data

How the results depend on the processing

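Across 13 alternatives (12 for Spry1, which the filter of 30 tags removed) no member was called at adjusted p below 0.05 and a fold over 2, and Dusp1, Dusp10, Dusp14, Spry1, Spry4 and Spred1 kept their signs. Dusp6 changed sign near 0, to 0.02 without a filter, 0.04 without EGFP⁻ replicate 1 and 0.02 without EGFP⁺ replicate 3 (−0.06 to 0.04 over left-out libraries). Spry2 went to −0.05 with library size only, −0.01 with at least 30 tags, −0.04 without EGFP⁻ replicate 1 and −0.07 without EGFP⁺ replicate 3 (−0.07 to 0.11 over left-out libraries). Over left-out libraries the genes called ranged from 267 to 329 higher and 483 to 580 lower. With at least 30 tags 208 genes were called higher and 326 lower, fewer genes being tested. With library size only, 256 were higher and 660 lower, against 321 and 595. The replicate block gave 337 higher and 648 lower, and changed no call among the members. With adjusted p alone 638 genes were higher and 812 lower, and 47 genes of the other lists were called, against 27. With adjusted p alone and the replicate block, an alternative chosen after seeing the data as were all runs on the other lists, 871 genes were higher and 1048 lower, 52 genes of the other lists were called, and 1 member was higher (Spred1) and 1 lower (Dusp1). Low depth limits Dusp4, Dusp5 and Spry1 most.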
